A study of Mus musculus and Ictidomys tridecemlineatus with 36 samples.

Results

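The 10 genes described here, *Bsn*, *Pclo*, *Ctbp2*, *Rims1*, *Rims2*, *Cacna2d4*, *Cabp4*, *Unc119*, *Cplx3*, and *Cplx4*, encode proteins of the photoreceptor ribbon synapse. They were taken as a named list from the 21938 protein-coding genes of GENCODE M21 on mouse chromosomes 1 to 19, X, and Y, and the rule that defines them uses no measured value. For each gene, the peaks within 1 kb of any annotated transcription start site (TSS) were called promoter peaks, and the peaks in the gene body plus 20 kb on each side were called window peaks. The data are CUT&RUN peak lists, in which an antibody directs a nuclease to a histone mark or a transcription factor (TF) and the released DNA is sequenced. The study profiled P2 mouse retina and P5 retina of the 13-lined ground squirrel (13LGS) to compare gene regulation in a rod-dominant and a cone-dominant species, and the mouse lists are used here. Each mouse replicate was a pool of retinas from 3 animals. The labels name no transgene or treatment, and the strain is not given in the sources used here. H3K4me3, H3K27ac, H3K4me1, and the IgG control each had 2 libraries from 2 biological replicates. Neurod1 had 4 libraries and Otx2 had 8, also from 2 biological replicates, with technical replicates counted. The Otx2 libraries were 4 for each of 2 antibodies (R&D Systems and Atlas Antibodies).

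Photoreceptors release glutamate continuously in darkness, and their terminals hold an electron-dense plate, the ribbon, that tethers vesicles beside clusters of voltage-gated calcium channels. The ribbon is built mainly from RIBEYE, a product of *Ctbp2*, and is anchored to the active zone by the large scaffold proteins Bassoon and Piccolo, while RIM proteins link vesicles to the channels, and complexins act on the fusion machinery. H3K4me3 marks promoters, H3K27ac marks active promoters and enhancers, H3K4me1 marks enhancers more broadly, and Otx2 and Neurod1 are TFs of photoreceptor precursors and other retinal cells.

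Each list pools all libraries of its target, so that a peak has a single fold enrichment over IgG and a single −log10 q-value. No spread between replicates could be computed, the read depth is unknown, and neighbouring values in the rankings given here cannot be said to differ. Whole retina was profiled, so a weaker peak may mean fewer cells with the mark or less of it per cell, and these cannot be told apart. Of marker genes checked for H3K4me3 at a TSS, 6 of 6 progenitor genes, 6 of 6 photoreceptor precursor genes, 0 of 3 bipolar genes, 2 of 3 amacrine or horizontal genes, and 1 of 3 ganglion cell genes had a peak. Of 10 genes of other tissues that a dissection could carry along, 1 had one, the pigment cell gene *Pmel*. The share over all protein-coding genes was 56.0%, so the counts out of 3 say little. H3K4me1 lay within 1 kb of a TSS at 5 of those 10 genes, against 63.6% of all genes. H3K4me3 at a promoter is not a measure of expression.

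The sequences under the factor peaks that the results turn on are shown first. TAATCC, on either strand, is a site read by Otx2 and its relative Crx, and CAGATG, on either strand, is an E-box read by Neurod1. The 5 stretches are GRCm38 reference sequence within 150 bp of the summit of a peak, outside annotated exons, with both motifs in capitals (on the minus strand TAATCC reads GGATTA). The first 3 come from the highest Otx2 promoter peaks of *Ctbp2*, *Cacna2d4*, and *Unc119*, the fourth from the Neurod1 peak downstream of *Cplx3*, and the last from the highest Otx2 peak of *Pclo*, in an intron.
Ctbp2, chr7:133015555-133015854, plus strand: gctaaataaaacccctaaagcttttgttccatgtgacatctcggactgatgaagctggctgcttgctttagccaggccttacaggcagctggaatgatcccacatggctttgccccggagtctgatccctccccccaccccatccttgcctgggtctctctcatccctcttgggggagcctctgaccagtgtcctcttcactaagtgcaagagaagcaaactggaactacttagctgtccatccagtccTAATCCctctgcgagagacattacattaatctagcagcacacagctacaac
Cacna2d4, chr6:119236449-119236525, plus strand: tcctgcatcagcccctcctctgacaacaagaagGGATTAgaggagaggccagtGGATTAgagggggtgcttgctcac
Unc119, chr11:78346760-78346910, plus strand: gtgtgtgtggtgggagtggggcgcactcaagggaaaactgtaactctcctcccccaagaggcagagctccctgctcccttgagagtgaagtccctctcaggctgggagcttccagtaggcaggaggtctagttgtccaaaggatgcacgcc
Cplx3, chr9:57599113-57599412, plus strand: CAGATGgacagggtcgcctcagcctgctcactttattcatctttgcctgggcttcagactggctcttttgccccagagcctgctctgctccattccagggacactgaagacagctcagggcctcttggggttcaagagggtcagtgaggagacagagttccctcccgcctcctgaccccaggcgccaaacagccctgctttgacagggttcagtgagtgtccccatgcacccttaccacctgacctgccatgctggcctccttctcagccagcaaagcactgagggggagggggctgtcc
Pclo, chr5:14834255-14834554, plus strand: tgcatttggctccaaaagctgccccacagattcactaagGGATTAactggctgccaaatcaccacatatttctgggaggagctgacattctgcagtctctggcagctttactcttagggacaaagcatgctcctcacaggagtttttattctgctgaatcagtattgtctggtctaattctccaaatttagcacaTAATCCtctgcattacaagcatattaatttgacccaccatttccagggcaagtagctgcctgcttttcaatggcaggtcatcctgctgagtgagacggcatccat
In *Ctbp2* the TAATCC lay 102 bp from the Otx2 summit. The *Cacna2d4* stretch ended at the base before the TSS and held 2 copies on the minus strand, 94 bp and 114 bp from the summit. The *Pclo* stretch held 1 copy on each strand, 48 bp and 108 bp from the summit. The *Unc119* stretch held neither motif. The *Cplx3* stretch opened with a CAGATG, 147 bp from the Neurod1 summit. Over all window peaks of the 10 genes, 10 of the 55 Otx2 peaks had a TAATCC lying wholly inside the 300 bp around the summit, a share of 18.2%, and the share over the whole Otx2 list was also 18.2%. For CAGATG, 8 of the 15 Neurod1 peaks had a copy in that stretch, or 53.3%, against 52.1% of the whole Neurod1 list. With whole peaks searched, 21 of the 55 Otx2 peaks held a TAATCC, 38.2% against 28.6% of the list, and 10 of the 15 Neurod1 peaks held a CAGATG, 66.7% against 58.2%. The shares were thus close to those of the lists around the summits. Over whole peaks the Otx2 share was higher than that of its list, while the Neurod1 share rests on 15 peaks and differed little. A wider peak has more room for a match, and whole peaks were not matched for width. A match is a description of the letters, not a measured site.

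Otx2 was the one target with a peak, at the authors' threshold, at the promoters of all 10 genes. By the same rule 51.0% of protein-coding genes had an Otx2 promoter peak. H3K4me1 lay at 9 promoters, all but *Unc119*, against 63.6% of genes, and H3K4me3 lay at 8, all but *Cabp4* and *Cplx4*, against 56.0%. H3K27ac lay at 7 promoters, being absent from *Bsn*, *Rims1*, and *Cabp4*, whereas 22.6% of genes had an H3K27ac promoter peak. Neurod1 lay at 2, *Cacna2d4* and *Cabp4*, against 5.76% of genes. For every target the count included weak peaks. When peaks had to reach a −log10 q of 5, Otx2 lay at 8 promoters, without *Rims1* and *Cplx4*, against 41.9% of genes. With a fold of at least 2.5 it lay at 9, without *Rims1*, against 47.2% of genes. At the same −log10 q of 5, H3K4me1 lay at 7, without *Bsn* and *Cabp4*, against 55.7%, and H3K4me3 lay at 7, without *Cplx3*, against 54.1%. H3K27ac remained at 4 promoters (*Ctbp2*, *Cacna2d4*, *Unc119*, *Cplx3*), against 12.5% of genes, and Neurod1 remained at *Cacna2d4* alone, against 3.93%.

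Combinations of targets at the same gene followed the same lines. H3K4me3 and Otx2 were both present at 8 of the 10 genes, against 48.4% of all genes. Otx2 accompanied H3K4me3 at most promoters of the genome, with 10623 of 12289 genes or 86.4%, so 8 of 8 is near what H3K4me3 promoters show in general. H3K4me3 and H3K27ac were both present at 6 genes, against 20.8% of all genes and 37.1% of those with H3K4me3. *Cabp4* and *Cplx4* had Otx2 without H3K4me3, a state found in 2.59% of all genes. Both genes with Neurod1 also had Otx2, a pair found in 5.57% of all genes. Of all genes with a Neurod1 promoter peak, 96.8% had an Otx2 promoter peak as well.

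**Figure D1:**
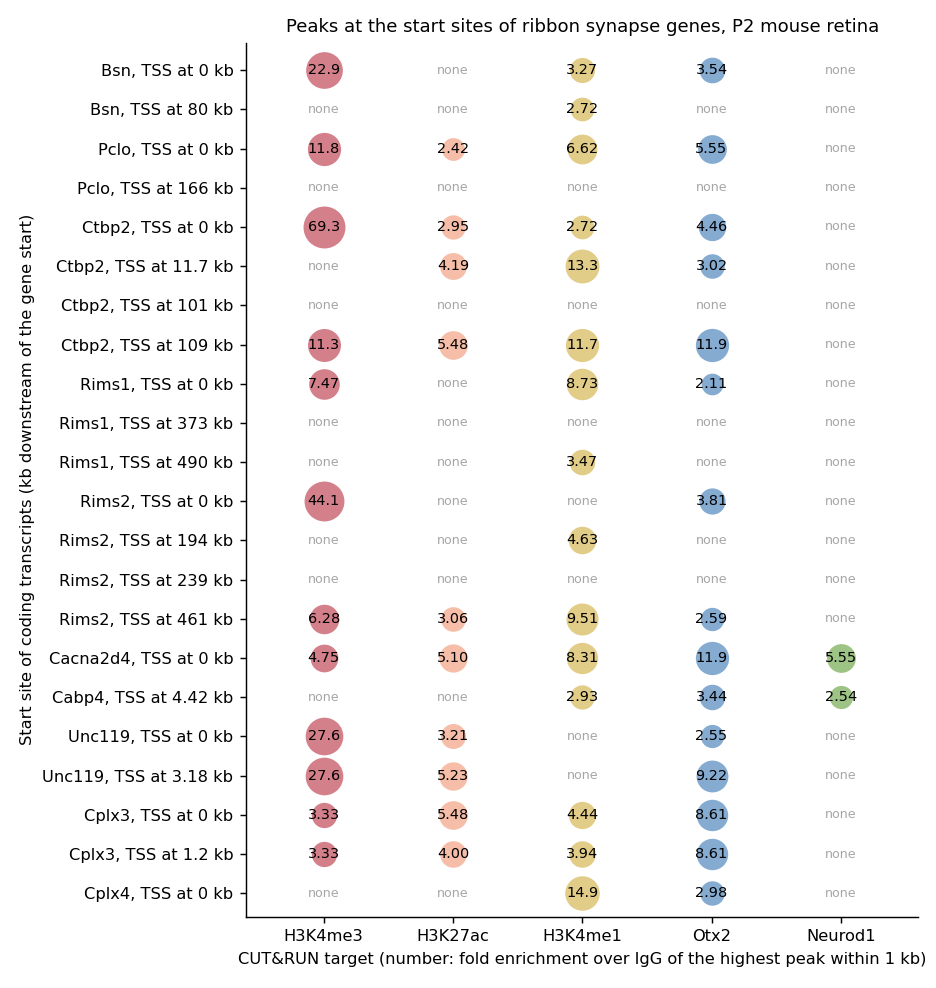
Fold enrichment over IgG of the highest peak within 1 kb of each start site of coding transcripts, one row per group of start sites within 1 kb and one column per target, with point size growing with the log of the fold. H3K4me3 spans 3.33-fold at *Cplx3* to 69.3-fold at the upstream *Ctbp2* start, Otx2 reaches 11.9-fold at the internal *Ctbp2* start and at *Cacna2d4*, and Neurod1 appears at *Cacna2d4* and *Cabp4* alone.

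The order of the genes differed between H3K4me3 and Otx2. Folds of different targets are not on a common scale, so each was read against the genes of its own list. For H3K4me3 the highest promoter peak was 69.3-fold at *Ctbp2*, 44.1-fold at *Rims2*, 27.6-fold at *Unc119*, 22.9-fold at *Bsn*, 11.8-fold at *Pclo*, 7.47-fold at *Rims1*, 4.75-fold at *Cacna2d4*, and 3.33-fold at *Cplx3*. The median over all 12289 genes with such a peak was 17.5-fold, and 4 of the 8 ribbon synapse genes lay above it. For Otx2 the order was *Ctbp2* and *Cacna2d4* at 11.9-fold each, *Unc119* at 9.22-fold, *Cplx3* at 8.61-fold, *Pclo* at 5.55-fold, *Rims2* at 4.93-fold, *Bsn* at 3.54-fold, *Cabp4* at 3.44-fold, *Cplx4* at 3.04-fold, and *Rims1* at 2.11-fold. The all-gene median for Otx2 was 3.99-fold, and 6 of the 10 lay above it. *Cacna2d4* and *Cplx3* therefore had weak H3K4me3, higher than 7.26% and 1.88% of H3K4me3 promoters, beside strong Otx2, higher than 98.6% and 94.6% of Otx2 promoters. *Rims2* and *Bsn* had H3K4me3 above the median and Otx2 peaks that exceeded 69.2% and 38.3% of Otx2 promoters. The 2 *Rims2* values come from different start sites. Its Otx2 peak of 4.93-fold lay at a noncoding transcript 236 kb into the gene, without H3K4me3. At the first start, with H3K4me3 of 44.1-fold, Otx2 was 3.81-fold, below the all-gene median. The highest H3K4me3 and Otx2 peaks of *Ctbp2* also lay at different start sites. *Pclo* and *Rims1* had H3K4me3 below the median and Otx2 peaks that exceeded 77.7% and 1.47%.

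H3K27ac at the promoters fell into a higher and a lower set of values. It was 5.48-fold at *Ctbp2* and *Cplx3*, 5.23-fold at *Unc119*, and 5.10-fold at *Cacna2d4*, each above at least 83.5% of the 4949 genes with such a peak. It was 3.06-fold at *Rims2*, 2.54-fold at *Cplx4*, and 2.42-fold at *Pclo*, below the all-gene median of 3.58-fold. The genes of the higher set are the same 4 that led the Otx2 order. H3K4me1 was highest at *Cplx4* with 14.9-fold and at *Ctbp2* with 13.3-fold, and lowest at *Bsn* with 3.27-fold and *Cabp4* with 2.93-fold, against a median of 5.64-fold.

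**Figure D2:**
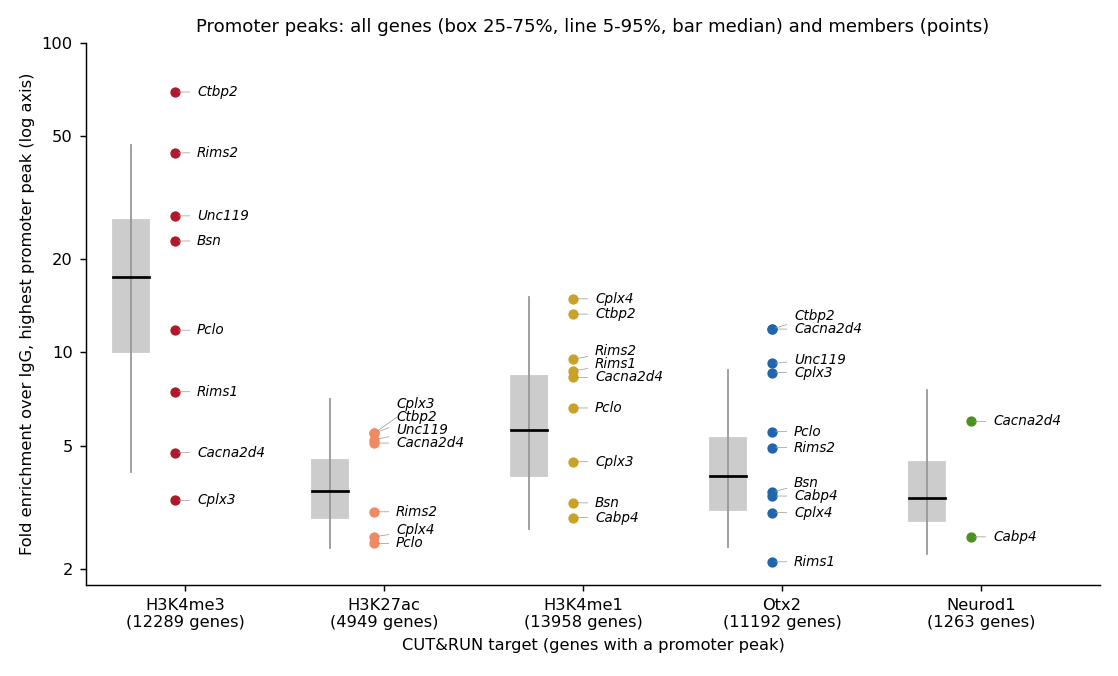
Fold enrichment over IgG (log axis) of the highest promoter peak of each gene, by target. Grey boxes, lines, and bars give the 25 to 75%, 5 to 95%, and median values over all genes with a promoter peak, and points give the ribbon synapse genes, of which *Ctbp2*, *Cacna2d4*, *Unc119*, and *Cplx3* lie between 8.61-fold and 11.9-fold for Otx2 and between 5.10-fold and 5.48-fold for H3K27ac.

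The start sites also differed in base composition, which the choice of genes did not use. The CpG observed/expected ratio compares the number of CG dinucleotides with that expected from the C and G content, here in the 500 bp on each side of the start site. Over all coding TSSs its median was 0.742 where H3K4me3 was present and 0.224 where it was not. The first start sites of *Ctbp2*, *Rims2*, *Pclo*, *Bsn*, *Rims1*, and *Unc119* had ratios of 0.874, 0.870, 0.836, 0.816, 0.620, and 0.596. Those of *Cplx4* and *Cplx3* were 0.461 and 0.392, the internal *Ctbp2* start had 0.308, and the coding starts of *Cabp4* and *Cacna2d4* had 0.128 and 0.125. The lower quartile for H3K4me3 start sites was 0.616. Coding start sites with H3K4me3 below it were those of *Cacna2d4*, *Cplx3*, and *Unc119*, the internal start of *Ctbp2*, and the internal start of *Rims2* at 0.493. Counting start sites of a gene within 1 kb as 1, the 10 genes have 34 start sites, 22 of them with a coding transcript, and 10 of the 34 had no peak of any list within 1 kb.

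*Ctbp2* (ENSMUSG00000030970, chr7:132987563-133124354, minus strand) had separate promoter states at its start sites. The upstream start gives transcripts with up to 445 codons, among them those of the widely expressed corepressor CtBP2, and the internal start, 109 kb downstream, gives Ctbp2-214 with 988 codons, the long form that contains the ribbon-specific domain of RIBEYE. The upstream start lay under an H3K4me3 peak of 69.3-fold that was 4691 bp wide and exceeded 99.2% of the peaks of the H3K4me3 list. H3K27ac there was 2.95-fold and Otx2 4.46-fold, and a start site annotated to *Fgfr2* lies within 1 kb of it. The internal start had H3K4me3 of 11.3-fold, H3K27ac of 5.48-fold, H3K4me1 of 11.7-fold, and Otx2 of 11.9-fold with a −log10 q of 89.7. This Otx2 peak spanned chr7:133015148-133016071, in an intron of the longer gene model. Its summit lay 215 bp upstream of the nearest annotated start, that of Ctbp2-206, and further from the Ctbp2-214 start, which lies downstream of it. Among peaks reaching within 1 kb, the RIBEYE start had a lower fold of H3K4me3 than the upstream start in these pooled lists. Its folds of H3K27ac, H3K4me1, and Otx2 were higher. The H3K4me3 and H3K4me1 peaks there were broad, with summits 2216 bp and 4040 bp downstream of the nearest annotated start. Their folds are thus values inside the gene and not at the start itself. Another coding start, 11.7 kb into the gene with 17 annotated codons, had H3K27ac of 4.19-fold, H3K4me1 of 13.3-fold, and Otx2 of 3.02-fold without H3K4me3. Just outside the 1 kb limit of the internal start, an Otx2 peak of 2.88-fold had its summit 1197 bp away. Away from start sites, the highest Otx2 peaks were one of 5.85-fold, 57.6 kb into the gene, and one of 4.91-fold, 3.94 kb into it. Neurod1 had no promoter peak at *Ctbp2* but 4 peaks in its introns, between 2.83-fold and 4.01-fold. The window of *Ctbp2* also held 10 Otx2 peaks, 44 H3K27ac peaks, and 37 H3K4me1 peaks, all of the Otx2 summits lying in the gene. H3K27ac peaks covered 21.1% of the window and H3K4me1 peaks 39.7%. By H3K27ac peaks per 100 kb, 0.419% of all gene windows were denser than that of *Ctbp2*.

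*Cacna2d4* (chr6:119236526-119352407, plus strand) encodes the auxiliary alpha-2-delta subunit of the photoreceptor calcium channel. It had all 5 targets at its first start site, with H3K4me3 of 4.75-fold, H3K27ac of 5.10-fold, H3K4me1 of 8.31-fold, Otx2 of 11.9-fold, and Neurod1 of 5.55-fold. The Otx2 summit lay 4 bp and the Neurod1 summit 19 bp downstream of an annotated start, and the summits of the 2 peaks were 53 bp apart. The H3K4me3 summit lay further inside, 540 bp downstream of a start. The 6 Neurod1 peaks of this window were the most for any of the genes, a count reached by 0.242% of all gene windows, and Otx2 overlapped 5 of them. The second group of peaks lay 90.1 to 94.4 kb into the gene, around noncoding transcripts of *Cacna2d4* and the start of *Lrtm2* on the opposite strand, with H3K4me3 of 4.69-fold, Otx2 of 5.95-fold, and Neurod1 of 5.99-fold. CUT&RUN has no strand, so these peaks cannot be assigned to either gene.

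*Cabp4* (chr19:4135423-4144033, minus strand) encodes a calcium-binding protein that modulates the photoreceptor calcium channel. Its coding start had no H3K4me3 and no H3K27ac. It had H3K4me1 of 2.93-fold, Otx2 of 3.44-fold with the summit 1 bp from the start, and Neurod1 of 2.54-fold with a −log10 q of 1.65. The start of *Gpr152* lies within 1 kb in the other direction, so the peaks belong to either or both. The window of *Cabp4* was crowded with other genes. Of its 7 Otx2 peaks, 5 lay at start sites of other genes only.

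*Unc119* (chr11:78343482-78349164, plus strand) encodes a carrier of lipid-modified proteins that is enriched in photoreceptor terminals. A broad H3K4me3 peak of 27.6-fold covered 3820 bp from before the first start to the internal start 3.18 kb downstream. Otx2 was 2.55-fold at the first start and 9.22-fold at the internal one, where the peak was 3149 bp wide. H3K27ac was 3.21-fold and 5.23-fold at the same sites. The internal part of the gene thus had the higher values of Otx2 and H3K27ac. No H3K4me1 promoter peak was called, and the window held 1 H3K4me1 peak, at the start of another gene.

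*Cplx3* and *Cplx4* had Otx2 and Neurod1 peaks away from their starts. *Cplx3* (chr9:57599992-57606281, minus strand) had H3K4me3 of 3.33-fold, H3K27ac of 5.48-fold, and Otx2 of 8.61-fold at its start, with the H3K27ac summit 1001 bp upstream in an intron of the neighbouring gene *Lman1l*. Beyond the 3′ end of the gene, a Neurod1 peak of 14.1-fold (chr9:57597911-57599679, −log10 q of 148), with its summit 7.02 kb from the gene start, overlapped an Otx2 peak of 10.5-fold (chr9:57598852-57600032), and the summits were 15 bp apart. The Neurod1 peak exceeded 98.3% of the Neurod1 list and was the highest of the 15 in these windows. H3K27ac over this element was 8.90-fold and H3K4me1 8.09-fold, with no H3K4me3 peak. The H3K27ac peak was 3279 bp wide with its summit 8.16 kb from the gene start. That summit was nearer to a second Otx2 peak, of 3.21-fold at 7.96 kb, than to the factor pair. *Cplx4* (chr18:65955722-65970237, minus strand) had a similar pair inside an intron, 9.18 kb from its start. The Otx2 peak there, of 12.4-fold with a −log10 q of 139, was the highest of the 55 Otx2 window peaks and exceeded 98.9% of the Otx2 list. The Neurod1 peak was 8.80-fold, with the summits 2 bp apart. H3K27ac over this element was 3.44-fold and H3K4me1 17.2-fold, with a small H3K4me3 peak of 2.72-fold. The H3K4me1 peak was 8427 bp wide, with its summit 8.10 kb from the gene start. The coding start of *Cplx4* had Otx2 of 2.98-fold and H3K4me1 of 14.9-fold but neither H3K4me3 nor H3K27ac, and its H3K27ac promoter peak of 2.54-fold belongs to a noncoding transcript 2.56 kb downstream. The window of *Cplx4* reached the promoter of the progenitor gene *Rax*, whose H3K4me3 peak of 159-fold was the highest of the whole list. Thus 2 of the 9 Otx2 peaks in that window lay at start sites of *Rax*. Another, of 3.35-fold with its summit in an untranslated region of *Rax*, overlapped the same H3K4me3 peak.

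**Figure D3:**
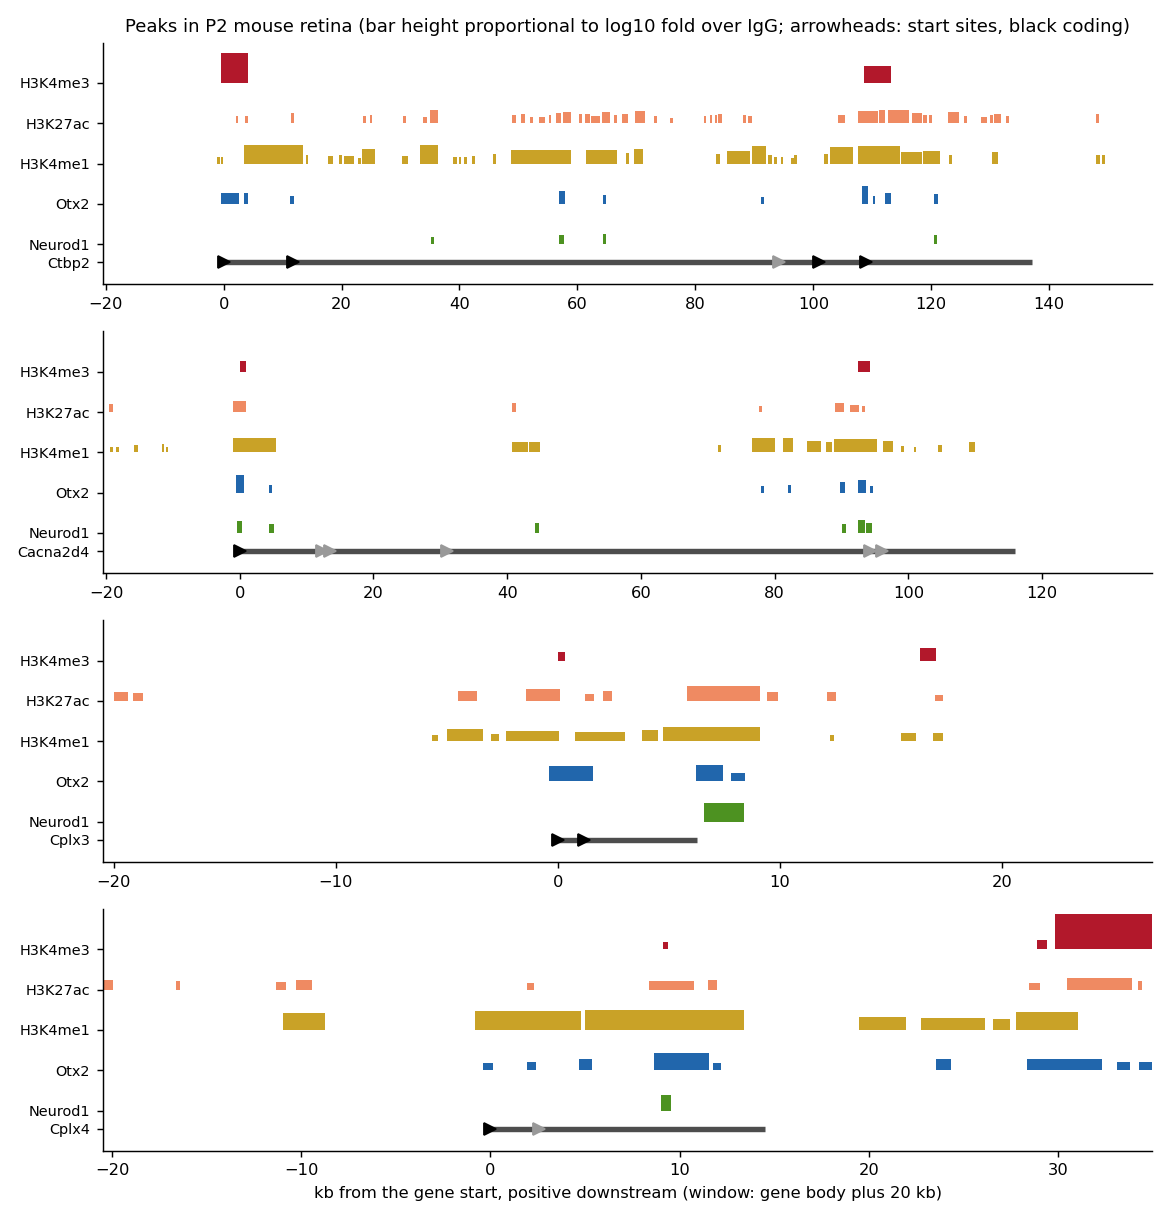
Peaks of the 5 targets along *Ctbp2*, *Cacna2d4*, *Cplx3*, and *Cplx4*, against distance from the gene start in kb, with the grey bar the gene body, arrowheads the start sites (black where coding), and bar height proportional to the log of the fold enrichment (narrow peaks are drawn wider than scale). *Ctbp2* carries 44 H3K27ac peaks along its length, and the Otx2 and Neurod1 peaks of *Cplx3* and *Cplx4* coincide 7.02 kb and 9.18 kb from the gene start.

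*Bsn* (chr9:108096022-108190384, minus strand), which encodes Bassoon, had H3K4me3 of 22.9-fold, H3K4me1 of 3.27-fold, and Otx2 of 3.54-fold at its first start and no H3K27ac or Neurod1. The Otx2 summit lay 219 bp upstream of the start. A single H3K27ac peak, of 4.04-fold, was found in its window, and 2 of the 4 Otx2 peaks there lay at start sites of *Apeh* or of *Mst1* and *Rnf123*. Having 1 or more H3K27ac window peaks was a state shared with 53.7% of all genes, and 47.9% of gene windows had a lower density of them than *Bsn*. *Rims1* (chr1:22286251-22805994, minus strand) and *Rims2* (chr15:39198261-39684372, plus strand) encode the RIM scaffolds that dock and prime vesicles. *Rims1* had H3K4me3 of 7.47-fold, H3K4me1 of 8.73-fold, and the weakest Otx2 promoter peak of the 10 genes, at 2.11-fold with a −log10 q of 1.64. An intronic element 35.1 kb downstream had Otx2 of 4.17-fold under H3K4me1 of 25.2-fold, higher than 99.5% of the H3K4me1 list, with no H3K27ac overlapping the Otx2 peak. *Rims2* had H3K4me3 of 44.1-fold at its first start and 6.28-fold at an internal start 461 kb downstream. H3K27ac was absent from the first and 3.06-fold at the internal start, which gives a transcript of 285 codons, and Otx2 was 3.81-fold and 2.59-fold. A noncoding transcript 236 kb into *Rims2* had Otx2 of 4.93-fold with H3K4me1 of 5.60-fold and no H3K4me3. No Neurod1 peak lay in the windows of *Bsn*, *Rims1*, or *Rims2*.

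*Pclo* (chr5:14514918-14863459, plus strand) encodes Piccolo, the partner of Bassoon at the ribbon, and differed from *Bsn* in its gene body. Its first start had H3K4me3 of 11.8-fold, H3K27ac of 2.42-fold, H3K4me1 of 6.62-fold, and Otx2 of 5.55-fold. The window held 33 H3K27ac peaks, up to 7.31-fold, of which 32 lay away from any start site and 7 reached a −log10 q of 5. The highest Otx2 peak, of 5.96-fold (chr5:14833564-14834771), lay in an intron 319 kb from the start, where H3K27ac was 6.50-fold and H3K4me1 15.8-fold. The single Neurod1 peak, of 5.82-fold, lay 13.0 kb into the gene over an Otx2 peak of 2.71-fold, with the summits 195 bp apart. An H3K4me3 peak of 8.34-fold lay 208 kb into the gene with no annotated start of *Pclo* or of another coding gene within 1 kb, overlapping an Otx2 peak of 3.89-fold. By peaks per 100 kb, *Pclo* had 8.49 for H3K27ac, against 0.744 for *Bsn*, 1.97 for *Rims1*, and 1.14 for *Rims2*.

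**Figure D4:**
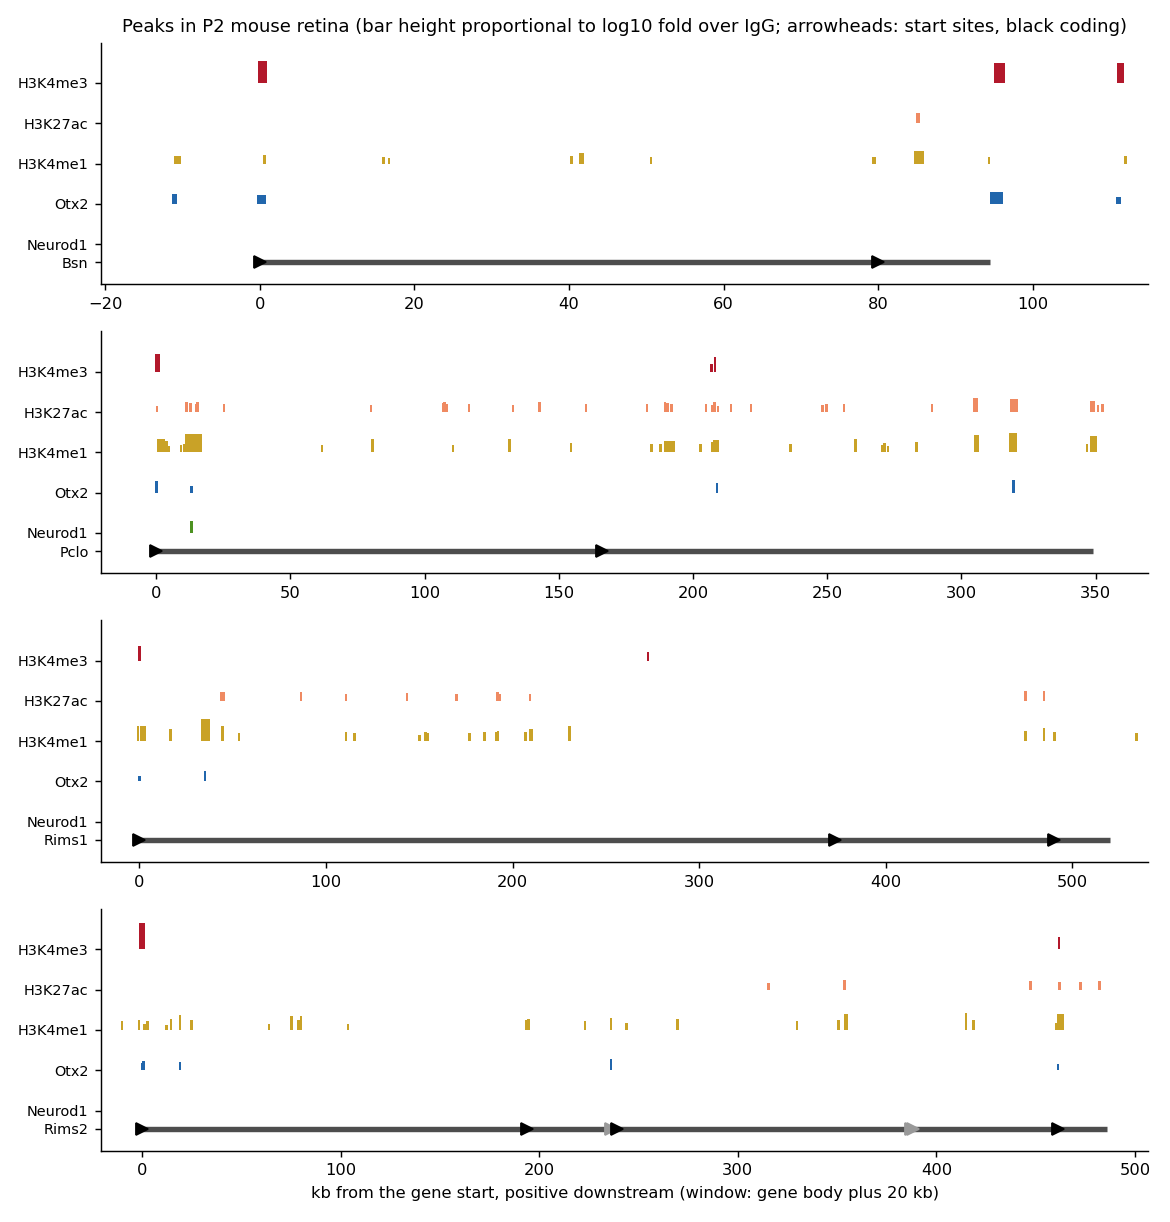
Peaks of the 5 targets along *Bsn*, *Pclo*, *Rims1*, and *Rims2*, drawn as for the other loci. *Pclo* has 33 H3K27ac peaks along its length and *Bsn* has 1, and the row of Neurod1 is empty except for 1 peak in *Pclo*.

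Over the gene body plus 20 kb, the 10 windows totalled 2137 kb and held 25 H3K4me3, 129 H3K27ac, 170 H3K4me1, 55 Otx2, and 15 Neurod1 peaks. An Otx2 window peak was present for all 10 genes, against 69.9% of all genes, and an H3K27ac window peak for all 10, against 53.7%. A Neurod1 window peak was present for 7, against 19.4% of all genes. With a −log10 q of at least 5 it was present for 5, without *Cabp4* and *Unc119*, against 14.7%. The windows of the longer genes had more room for a peak, so densities are the fairer reading. H3K27ac stood at 6.04 peaks per 100 kb over the 10 windows pooled, against 3.17 over all gene windows pooled. Counting each gene once, the median density was 7.33 against 1.06, and 9 of the 10 genes lay above the all-gene median. *Ctbp2* and *Pclo* held 77 of the 129 H3K27ac peaks, and without *Ctbp2* the pooled density was 4.34. Most of these peaks were weak, and 43 of the 129 reached a −log10 q of 5. At that limit the pooled density was 2.01 against 1.11 for all genes, so both fell together. Neurod1 stood at 0.702 per 100 kb against 0.333 for all genes, both pooled, but without *Cacna2d4* it was 0.454.

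For the other targets the reading depended on how genes were weighted, since pooling weights them by length. Otx2 stood at 2.57 per 100 kb against 2.18 for all genes when pooled, and at a median per gene of 5.07 against 1.86. For H3K4me1 the pooled values were 7.96 against 7.22 and the medians 10.2 against 6.16. For H3K4me3 they were 1.17 against 1.45 pooled and 1.76 against 1.35 by the median. The long genes *Rims1*, *Rims2*, and *Pclo* had Otx2 densities below the all-gene median, and the other 7 genes lay above it. At a −log10 q of 5, the Otx2 medians were 3.10 against 1.32, whereas those of H3K4me1 were 3.86 against 3.91.

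The densities differed widely among the 10 genes. For Otx2, *Cplx4* had 16.5 and *Cabp4* 14.4 peaks per 100 kb, densities exceeded by 0.602% and 1.08% of gene windows, while *Rims1* had 0.357. The start sites of neighbouring genes, *Rax* and those around *Cabp4*, lie in the first 2 windows. For H3K27ac, *Cplx3* had 21.6 and *Cplx4* 18.3 peaks per 100 kb, exceeded by 0.784% and 1.44% of gene windows. Of the 10 H3K27ac peaks in each of these windows, 2 had their summit in *Cplx3* and 3 in *Cplx4*. The others lay in the flanks, some of them in neighbouring genes. For Neurod1, *Cacna2d4* had 3.85 per 100 kb, exceeded by 2.18%.

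**Figure D5:**
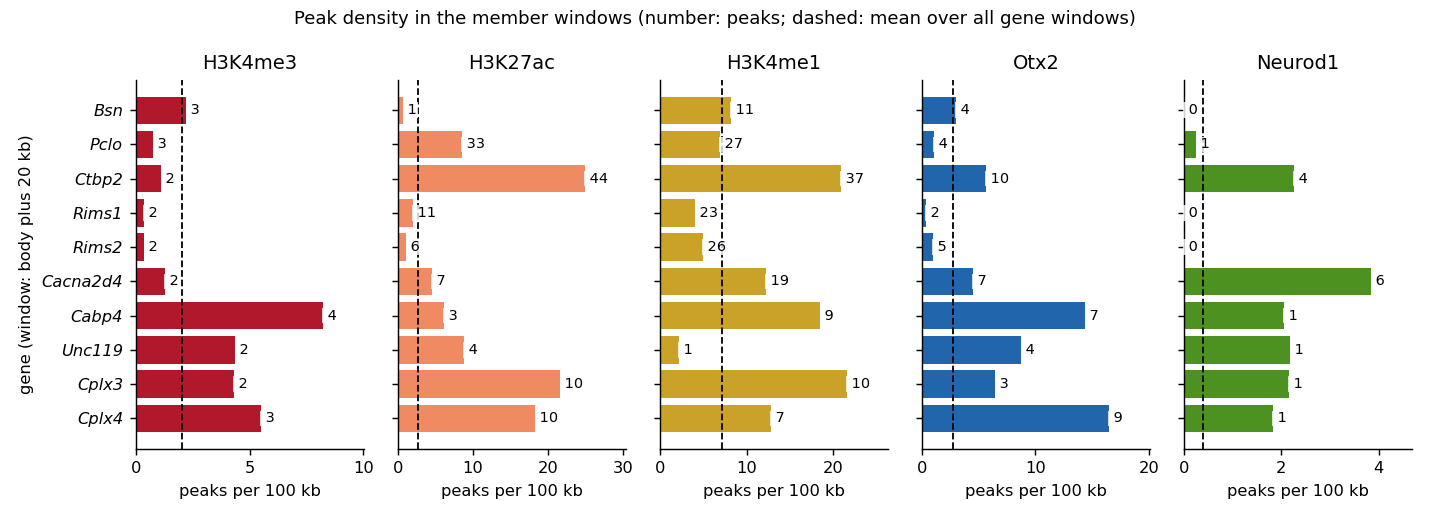
Peaks per 100 kb in the window of each gene, by target, with the number of peaks beside each bar and the mean over all gene windows as a dashed line. *Ctbp2* leads for H3K27ac with 24.9 peaks per 100 kb, *Cacna2d4* for Neurod1 with 3.85, and *Cplx4* for Otx2 with 16.5.

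Part of the window peaks belonged to start sites of other genes. Of the 55 Otx2 peaks, 15 lay at start sites of the ribbon synapse genes only, 4 at start sites shared with another gene, 10 at those of other genes only, and 26 away from any coding gene's start. The share away from a start was 47.3%, against 57.5% of the Otx2 list. Of the 129 H3K27ac peaks, 109 lay away from any start, or 84.5%, against 88.5% of the list. Of the 15 Neurod1 peaks, 11 did, or 73.3%, against 73.9%.

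The Otx2 and Neurod1 window peaks were sorted by the histone peaks they overlapped, with H3K4me3 read as promoter, H3K27ac without H3K4me3 as active enhancer, and H3K4me1 without either as poised enhancer. Of the 55 Otx2 peaks, 28 were at promoters (50.9%, against 43.3% of the list), 11 at active enhancers (22.6% of the list), 15 at poised enhancers (27.3% against 26.9%), and 1 at no histone peak. Promoter here means overlap with H3K4me3 and not a start within 1 kb. Of those 28 peaks, 6 lay away from any coding gene's start. Of the 15 Neurod1 peaks, 4 were at promoters (26.7%, against 25.6% of the list), 6 at active enhancers (40.1% of the list), 4 at poised enhancers (28.7% of the list), and 1 at no histone peak. The 6 active enhancers with Neurod1 were 3 in *Ctbp2* and 1 each in *Pclo* and *Cacna2d4* and at *Cplx3*. Neurod1 overlapped Otx2 at 13 of 15 peaks, or 86.7%, against 82.1% of the list, the exceptions being 1 intronic peak each in *Ctbp2* and *Cacna2d4*. Otx2 overlapped Neurod1 at 14 of 55 peaks, or 25.5%, against 13.1%. The summits of overlapping pairs lay a median of 61.0 bp apart in these windows and 66.0 bp apart over the whole list.

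Other genes of the synapse were counted by the same promoter rule. The shares over all protein-coding genes were 51.0% for Otx2, 22.6% for H3K27ac, 56.0% for H3K4me3, 63.6% for H3K4me1, and 5.76% for Neurod1. Of 17 further proteins of the photoreceptor terminal, among them calcium channel subunits, synaptic vesicle proteins, and adhesion partners, 13 had Otx2 (76.5%), 11 had H3K27ac (64.7%), 14 had H3K4me3 (82.4%), 17 had H3K4me1, and 5 had Neurod1 (29.4%). The highest Otx2 promoter peaks were those of *Dlg4* at 13.3-fold, *Syp* at 8.88-fold, *Mpp4* at 7.38-fold, *Egflam* at 7.12-fold, *Stx3* at 6.11-fold, and *Sv2b* at 4.37-fold, and the first 5 of these were the genes with Neurod1. *Cacna1f*, the pore-forming channel subunit that Cacna2d4 and Cabp4 serve, had H3K4me1 of 4.87-fold at its start and no other target. Of 19 conventional synapse genes and paralogues of the ribbon genes, 10 had Otx2 (52.6%), 3 had H3K27ac (15.8%), 16 had H3K4me3 (84.2%), 18 had H3K4me1 (94.7%), and 3 had Neurod1 (15.8%). The highest Otx2 peaks among them were at *Cabp1*, with 9.08-fold and Neurod1 of 9.46-fold, at *Erc1* with 6.20-fold, and at *Cacna2d2* with 5.85-fold. The conventional complexins *Cplx1* and *Cplx2* had H3K4me3 of 5.38-fold and 12.4-fold and no H3K27ac at their promoters. *Cplx2* had an Otx2 promoter peak of 4.32-fold, and *Cplx1* had none. Their windows held 2 Neurod1 peaks each, none at a promoter, and 1 and 2 Otx2 peaks. *Cplx3* had H3K4me3 of 3.33-fold and H3K27ac of 5.48-fold. The coding start of *Cplx4* had neither mark.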

How the data were processed

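CUT&RUN was performed on P2 mouse retina. The submitters' processing notes name Trim Galore 0.6.4, Bowtie2, SAMtools 1.12, and MACS2. The authors trimmed reads, aligned them to GRCm38, removed duplicates, and called peaks at a q-value of 0.05, with all libraries of a target pooled and IgG as the control. The authors deposited for each peak its fold enrichment, a ratio to IgG, and its −log10 q-value. Neither was rescaled. The authors' signal threshold for element classes was not applied, since it needs read coverage. The 5 mouse lists of the 10 deposited were used. The 13LGS lists were not used here.

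Peaks were joined to GENCODE M21 with Python 3.11.15, numpy 2.4.6, and pandas 2.3.3, an overlap being at least 1 bp. On simulated intervals, counts and covered bases in 1000 windows were tested against bedtools 2.31.1, with 0 differences. Sequences were read from the GRCm38 reference genome, none of them from chromosome 18. Plots were drawn with matplotlib 3.10.9.

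No test was made, because each list pools its libraries into 1 value per peak. Counts were read against the share of all protein-coding genes that meet the same rule, and the lists of other genes by their counts. The members and gene lists were chosen with earlier results of these data known. All 10 genes are named for each target. Of the other synapse lists, at most 6 genes with an Otx2 or Neurod1 promoter peak are named, by fold enrichment, and per gene at most 2 peaks per target away from a TSS, by fold enrichment. *Cacna1f*, *Cplx1*, *Pmel*, and some peaks near a limit or in a factor pair were named after their values had been seen. Alternatives were a −log10 q of at least 5, a fold of at least 2.5, an overlap of 250 bp, merging within 500 bp, other distances, summits in place of peaks, and coding transcripts only. Leaving out each gene, and leaving out peaks at other genes' TSSs, were chosen after seeing the data.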

Additional observations from a re-analysis of the deposited data

How the results depend on the processing

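Of the 70 alternatives to the counts of genes with a promoter peak and of window peaks, 63 stayed within 1.5 times the value reported and 7 did not. With a −log10 q of at least 5, H3K27ac lay at 4 of the promoters in place of 7, without *Pclo*, *Rims2*, and *Cplx4*, and Neurod1 at 1 in place of 2, without *Cabp4*, while the window peaks became 43 for H3K27ac, 93 for H3K4me1, and 33 for Otx2. The H3K4me3 window peaks numbered 15 within the gene bodies alone, where *Cabp4* had none, and 40 with 50 kb on each side. By the class at the summit, 2 Neurod1 window peaks in place of 4 were at promoters, and with whole peaks searched TAATCC was found in 21 of the 55 Otx2 peaks, 38.2% against 28.6% of the list. Leaving out *Cacna2d4* lowered the Neurod1 density from 0.702 to 0.454 peaks per 100 kb, and without peaks at the start sites of other genes only, 45 Otx2 peaks remained. The cause was not tested, other than that stricter limits and shorter windows hold fewer peaks. No paired analysis was possible because each list pools its replicates, and for the same reason no replicate could be left out and no depth is known.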
